A study of Mus musculus with 405 samples.

Results

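The libraries of 9 pesticides and biocides applied to mouse cortical cultures, 5 placed by the study in its cluster 3 and 4 in its cluster 4, were compared with vehicle. The contractile genes Acta2, Tagln, Cnn2 and Myl9 were lower than most vehicle libraries in all 4 cluster 4 libraries and in some of the cluster 3 libraries. The genes Fos, Npas4, Bdnf and Vgf, which neuronal activity induces, were higher than the vehicle mean in all 5 cluster 3 libraries and, except for Fos under ethoprop, lower than it in all 4 cluster 4 libraries. Across all 9 libraries 12 of 13304 genes (0.0902%) stood apart from vehicle by a rule of size and overlap, and all 12 were lower.

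The 9 libraries were taken by the names of their chemicals, following the cluster assignments of the study, and they are 9 of 393 libraries in the screen table and of 405 samples in the series. Cluster 3 held dichlorprop (a phenoxy herbicide), dicofol (an organochlorine acaricide), pyriproxyfen (an insect juvenile hormone analogue), tebupirimfos (an organophosphate insecticide) and methylene bis(thiocyanate) (a biocide). Cluster 4 held butafenacil (an inhibitor of protoporphyrinogen oxidase used as a herbicide), ethoprop (an organophosphate nematicide), linuron (a phenylurea herbicide) and quintozene (a chlorinated nitrobenzene fungicide). Methylene bis(thiocyanate) was given at 1 µM and the other 8 chemicals at 10 µM, each to 1 culture library, for 24 h starting on day 7 in vitro. The reference was the 49 vehicle (DMSO) libraries of the screen table. With 1 library per chemical, no chemical has a replicate check of its own.

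All libraries came from primary cortical cultures of hybrid embryos (strain label CAST x C57BL6, from C57BL/6J mothers and CAST/EiJ fathers) taken at embryonic day 15 by the labels. Every culture, vehicle included, had been plated with serum and fed on day 3 in vitro with an antimitotic (uridine and fluorodeoxyuridine), which inhibits dividing cells. Polyadenylated RNA was sequenced. The labels do not say which cultures shared a preparation or plate.

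The screen values are deviations from each gene's median over the libraries, after the authors had removed culture and sequencing batch effects, and are given here on the log2 scale. A value of -1 is therefore a level 2-fold under the gene's median, and no level can be read from it. Where a level helps, it is given as CPM (gene counts scaled to one common library total) in the 4 vehicle libraries of a separate count table of the study, whose totals ran from 2778615 to 7833440 counts. The depth of the screen libraries is unknown.

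The study clustered the libraries on these same values, so no comparison of the 9 libraries with vehicle is an independent test, and differences are given as descriptions with the spread between libraries. A gene was counted as apart from vehicle when the means differed by at least 0.5 and every library of the group lay outside the interquartile range of the vehicle libraries (25th to 75th percentile) on the same side. In bulk RNA, fewer cells of a type and less RNA per cell cannot be told apart.

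Among the vehicle libraries, replicate 39 stood apart. For 18.1% of genes it lay outside the range of the other vehicle libraries, against at most 6.76% for any other, and it held the highest vehicle values of Fos (2.52), Npas4 (2.44), Bdnf (2.41) and Vgf (2.80) and the lowest of Acta2 (-2.76), Tagln (-1.13) and Mki67 (-2.03). Its mean Spearman correlation with the cluster 3 profiles was 0.187, against at most 0.0835 for any other vehicle library. Without it, 12, 133 and 166 genes were apart from vehicle for all 9 libraries, cluster 3 and cluster 4, against 12, 117 and 169 with it.

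Acta2 (smooth muscle actin), Tagln (transgelin) and Cnn2 (a calponin) bind or form the actin filaments of contractile cells, and Myl9 is a regulatory light chain of myosin. Many such genes are controlled by serum response factor, which binds the CArG box, and several genes of stretched or dividing cells, Cyr61 among them, by YAP and TAZ through TEAD factors, which bind GGAATG. Fos, Npas4, Bdnf and Vgf are switched on in neurons by calcium entry, through factors that include CREB, which binds sites built on TGACG.

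The windows of 250 bases before the RefSeq start site (build GRCm38.p6) are shown for genes of the groups described next, since they show which of these motifs lie next to the starts. Capitals mark the motif named for each gene, on either strand. The windows are Acta2 at chr19:34255374-34255623 (minus strand, GGAATG in capitals), Cnn2 at chr10:79988350-79988599 (plus strand, CArG box), Myl9 at chr2:156775214-156775463 (plus strand, CArG box), Cyr61, listed there as Ccn1, at chr3:145649986-145650235 (minus strand, GGAATG), Fos at chr12:85473640-85473889 (plus strand, TGACG) and Npas4 at chr19:4989972-4990221 (minus strand, TGACG).
Acta2: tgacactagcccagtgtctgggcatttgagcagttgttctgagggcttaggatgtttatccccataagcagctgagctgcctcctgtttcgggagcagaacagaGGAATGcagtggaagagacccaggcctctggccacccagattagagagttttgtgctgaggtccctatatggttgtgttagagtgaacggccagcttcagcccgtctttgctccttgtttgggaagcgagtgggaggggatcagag
Cnn2: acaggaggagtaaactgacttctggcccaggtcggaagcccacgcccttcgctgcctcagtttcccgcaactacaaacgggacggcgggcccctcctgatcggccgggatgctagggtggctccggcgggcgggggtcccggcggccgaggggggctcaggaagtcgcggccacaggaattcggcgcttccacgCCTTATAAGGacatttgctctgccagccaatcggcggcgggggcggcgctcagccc
Myl9: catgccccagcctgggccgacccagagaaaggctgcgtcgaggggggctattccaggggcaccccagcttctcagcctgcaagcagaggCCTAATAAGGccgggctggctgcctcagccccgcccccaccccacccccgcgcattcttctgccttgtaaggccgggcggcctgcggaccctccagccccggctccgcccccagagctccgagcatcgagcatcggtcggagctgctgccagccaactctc
Cyr61: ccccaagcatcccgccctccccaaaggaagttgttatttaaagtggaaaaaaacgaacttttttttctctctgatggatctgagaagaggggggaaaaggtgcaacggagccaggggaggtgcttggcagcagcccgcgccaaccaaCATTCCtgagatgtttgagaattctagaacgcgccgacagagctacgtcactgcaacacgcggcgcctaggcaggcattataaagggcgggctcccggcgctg
Fos: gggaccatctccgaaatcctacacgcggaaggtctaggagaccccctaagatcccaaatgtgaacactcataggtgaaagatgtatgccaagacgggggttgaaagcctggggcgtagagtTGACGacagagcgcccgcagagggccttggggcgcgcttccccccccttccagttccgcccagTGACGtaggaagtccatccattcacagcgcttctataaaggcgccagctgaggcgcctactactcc
Npas4: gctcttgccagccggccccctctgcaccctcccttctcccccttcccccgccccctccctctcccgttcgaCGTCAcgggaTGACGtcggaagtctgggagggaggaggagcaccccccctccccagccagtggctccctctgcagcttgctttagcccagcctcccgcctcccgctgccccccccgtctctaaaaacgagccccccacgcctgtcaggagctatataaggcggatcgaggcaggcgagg

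The CArG box was searched for as CCWWWWWWGG (W for A or T), with no mismatch allowed. Near matches, such as ccctatatgg and ccttgtttgg in the window of Acta2, were not counted. The strict form was found in the windows of Cnn2 and Myl9 and in 1.47% of 32851 such windows over all genes. GGAATG was found in those of Acta2 and Cyr61 and in 12.6% of all windows, and TGACG in 2 copies each in those of Fos and Npas4 and in 17.8% of all windows. The window of Cyr61 also held TGACG once, apart from its GGAATG, and no match overlapped another in these windows. No window was searched for Tagln, Ctgf and Vgf. A match of letters is a description of the window and not a binding site.

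Acta2 (chr19:34315580-34329826, minus strand, mm9) had values of -1.16, -1.33, -1.45 and -1.01 under butafenacil, ethoprop, linuron and quintozene, against a vehicle range of -2.76 to 0.93 with a median of -0.06. In cluster 3 it was -0.88 under dichlorprop, -1.34 under dicofol, -0.75 under pyriproxyfen, -0.08 under tebupirimfos and -0.80 under methylene bis(thiocyanate). All 4 cluster 4 libraries and dichlorprop and dicofol lay under all but 2 of the 49 vehicle libraries, while tebupirimfos lay in the middle of them, so the marker does not describe every cluster 3 library. The cluster 4 mean was -1.24 ± 0.19 (SD, n = 4) and the cluster 3 mean -0.77 ± 0.45 (SD, n = 5), against -0.07 ± 0.64 (SD, n = 49) in vehicle. Differences from vehicle were -1.17 ± 0.13 (SE) for cluster 4 and -0.70 ± 0.22 (SE) for cluster 3. Acta2 was at 41.9 ± 24.0 CPM (SD, n = 4) in the separate vehicle libraries.

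Tagln (chr9:45737711-45744141, minus strand) was -0.97, -1.69, -1.55 and -0.59 in the same order of cluster 4 chemicals, with a vehicle range of -1.13 to 0.77. Ethoprop and linuron lay under every vehicle library. In cluster 3 the values were -1.18, -0.54, -0.06, 0.12 and -0.61, so dichlorprop was the library under every vehicle library and pyriproxyfen and tebupirimfos were within the vehicle interquartile range. Cnn2 (chr10:79451329-79458807, plus strand) was -1.07, -1.23, -0.75 and -1.52 in cluster 4, against -1.21 to 0.63 in vehicle, and -0.66, -1.04, -0.39, 0.12 and -0.66 in cluster 3. Ethoprop and quintozene lay under the vehicle range for Cnn2, and tebupirimfos was again the library nearest to vehicle. Myl9 was lowest in ethoprop (-1.77) among the 9 libraries and -0.98 or lower in all cluster 4 libraries, and its difference from vehicle was -1.30 ± 0.18 (SE) in cluster 4 and -0.54 ± 0.23 (SE) in cluster 3. For all 4 genes the 2 clusters overlapped.

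**Figure D1:**
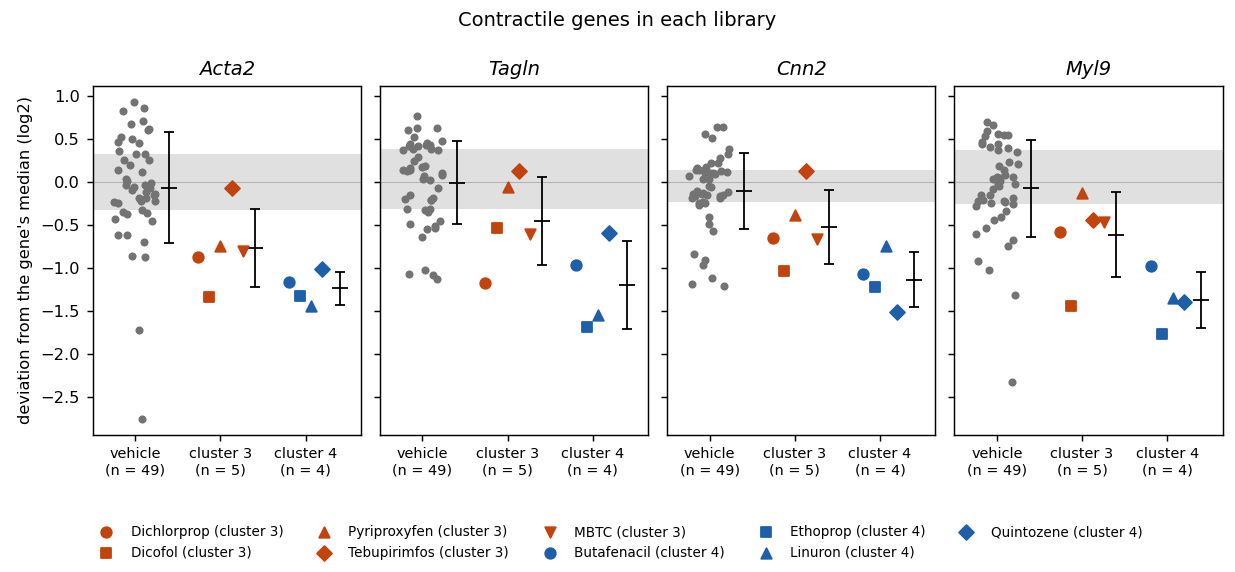
Deviation of Acta2, Tagln, Cnn2 and Myl9 from each gene's median (log2, vertical axis) in 49 vehicle, 5 cluster 3 and 4 cluster 4 libraries. Each point is 1 library, black marks are the mean ± SD and the grey band is the interquartile range of vehicle; MBTC is methylene bis(thiocyanate), the 4 cluster 4 libraries lie under the band in every panel, and tebupirimfos lies inside it for Acta2, Tagln and Cnn2.

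Of 26 smooth muscle and contractile genes, 23 were measured. In cluster 4, 5 of the 23 stood apart as lower (Acta2, Tagln, Cnn2, Myl9 and Cald1, which encodes the actin-binding caldesmon) and none as higher, beside 0.804% of all genes as lower and 0.466% as higher. The median difference of the list was -0.30 in cluster 4 and -0.23 in cluster 3, against 0.01 and 0.00 over all genes, and 22 of 23 genes in cluster 4 and 18 of 23 in cluster 3 had a negative difference. None of the 23 stood apart in cluster 3, where 0.338% of all genes were lower and 0.541% higher. By library the list median was lowest under linuron (-0.45), dicofol (-0.40) and butafenacil (-0.39), each with 1 vehicle library under it, and -0.07 under tebupirimfos, inside the vehicle interquartile range. Because the clusters were drawn on these values, nothing is read from the counts against the background.

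YAP and TAZ target genes, which report tension and growth signals, were read next. Of 17 measured, 5 were apart and lower in cluster 4 (Ctgf, Cyr61, Thbs1, Lats2 and Nuak2) and none in cluster 3, beside 0.804% and 0.338% of all genes, and all 17 had negative differences in cluster 4. Thbs1, the matricellular thrombospondin, was -0.81, -0.87, -0.83 and -0.97 in cluster 4 and -0.72, -0.79, -0.64, -0.09 and -1.003 in cluster 3, against a vehicle range of -0.53 to 0.63. Thus 8 of the 9 libraries lay under every vehicle library for Thbs1, and tebupirimfos alone did not. Lats2, a kinase that restrains YAP, was -0.66, -0.75, -0.41 and -0.11 in cluster 4 but between 0.01 and 0.17 in the 5 cluster 3 libraries, without overlap. Ctgf was under every vehicle library in all 4 cluster 4 libraries (-0.47, -0.78, -0.41 and -0.57) and, in cluster 3, -0.37 under dichlorprop and within -0.07 to 0.15 in the other 4.

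Of 37 extracellular matrix genes measured, 4 were apart and lower in cluster 4 (the collagens Col5a2, Col12a1 and Col18a1, and Hspg2, the basement membrane perlecan) and 1 in cluster 3 (Lamb2, a laminin chain), beside 0.804% and 0.338% of all genes. The list medians were close, at -0.30 in cluster 4 and -0.31 in cluster 3, and 31 and 34 of the 37 differences were negative. By library, the median over the list was lowest under methylene bis(thiocyanate), at -0.59, and butafenacil, at -0.49, both under all 49 vehicle libraries (-0.38 to 0.43). It was -0.03 under quintozene, inside the vehicle interquartile range.

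Markers of other cells of the culture were read beside these lists. Mural cell and fibroblast markers were measured for 8 of 18 genes and endothelial markers for 3 of 14, and the defining Myh11, Des, Pecam1, Cldn5, Kcnj8 and Pdgfra were not analysed here. The median over the mural and fibroblast list ran from -0.67 to -0.04 in cluster 3 and from -0.54 to 0.03 in cluster 4, against -0.41 to 0.40 in vehicle. Of its members, Pdgfrb, the pericyte receptor, differed by -0.36 and -0.34, and Cspg4 was apart in both clusters. The endothelial list median ran from -0.74 to -0.12 in cluster 3 and from -0.88 to -0.07 in cluster 4, against -1.63 to 0.99 in vehicle. Kdr, a receptor of endothelial cells, was apart and lower in cluster 4 (-0.77), while Egfl7, a factor they secrete, differed by 0.16 in cluster 3 and 0.65 in cluster 4 and did not stand apart. The part of such cells in the contractile values was not tested.

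Proliferation genes were read beside them as a sign of dividing cells. Of 23 measured, 2 were apart and lower in cluster 4 (Mki67 and Cdc20) and none in cluster 3, beside 0.804% and 0.338% of all genes, and 22 and 21 had negative differences, with medians of -0.44 in cluster 4 and -0.36 in cluster 3. Mki67, the marker of cycling cells, was -0.05, -0.56, -0.64 and -0.91 in cluster 4 and -0.42, 0.15, -0.17, -0.05 and -0.30 in cluster 3, against -2.03 to 0.68 in vehicle. Ethoprop, linuron and quintozene were under all but 1 vehicle library. Ccnb1, the mitotic cyclin, was -2.60 under quintozene, -1.92 under ethoprop, -1.77 under pyriproxyfen and -1.69 under butafenacil, all under every vehicle library (-1.27 to 1.64), but -0.22 under linuron and -0.29 to 0.06 in the other 4 cluster 3 libraries.

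Microglial markers were measured for 9 of 22 genes. The list median was -0.88 under methylene bis(thiocyanate), -0.49 under dichlorprop, -0.47 under linuron, -0.45 under pyriproxyfen and -0.36 under butafenacil, each under all or all but 1 of the vehicle libraries, and 0.05 under dicofol. Cx3cr1, the microglial fractalkine receptor, differed from vehicle by -0.83 ± 0.25 (SE) in cluster 3, where dicofol (0.23) lay in the vehicle interquartile range and the other 4 were between -1.12 and -0.55, and by -0.44 ± 0.08 (SE) in cluster 4. Tlr13, a receptor for bacterial RNA, was the 1 of the 9 that stood apart, as lower in cluster 4 (-0.67), beside 0.804% of all genes. Csf1r, the receptor that microglia need to survive, differed in the other direction, by 0.19 ± 0.29 (SE) in cluster 3 and 0.49 ± 0.18 (SE) in cluster 4. C1qb, a complement chain, was -3.42 under methylene bis(thiocyanate) alone and -0.47 or higher in the other 8 libraries. The defining Tmem119, P2ry12 and Aif1 were not analysed here. The part of these cells in the values of other genes was not tested.

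Astrocyte and radial glia markers had medians of differences of -0.32 in cluster 3 and -0.14 in cluster 4 over 14 genes. None stood apart, beside 0.879% of all genes in cluster 3 and 1.27% in cluster 4. Gfap, the astrocyte filament, was split within both clusters. It was 0.67 under dicofol, 0.34 under butafenacil and 0.38 under linuron, but -0.89 under dichlorprop and -1.09 under quintozene. All 20 neuron markers were measured and none stood apart in either cluster, with medians of 0.04 and 0.10. With so few of all genes apart, a short list without a call does not show that these cells were unchanged. Rbfox3, a nuclear marker of mature neurons, was between -0.17 and 0.23 in cluster 3 and between 0.13 and 0.43 in cluster 4, against -0.21 to 0.57 in vehicle. Of 7 measured oligodendrocyte lineage markers, Cnp was apart and lower in cluster 3 (-0.61), beside 0.338% of all genes. The list median in cluster 3 was 0.16 and 5 of the 7 differences were positive. In cluster 4 the list median was -0.15 and 3 of the 7 were positive. The 26 names of mitochondrially encoded genes on a further list were not analysed here.

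**Figure D2:**
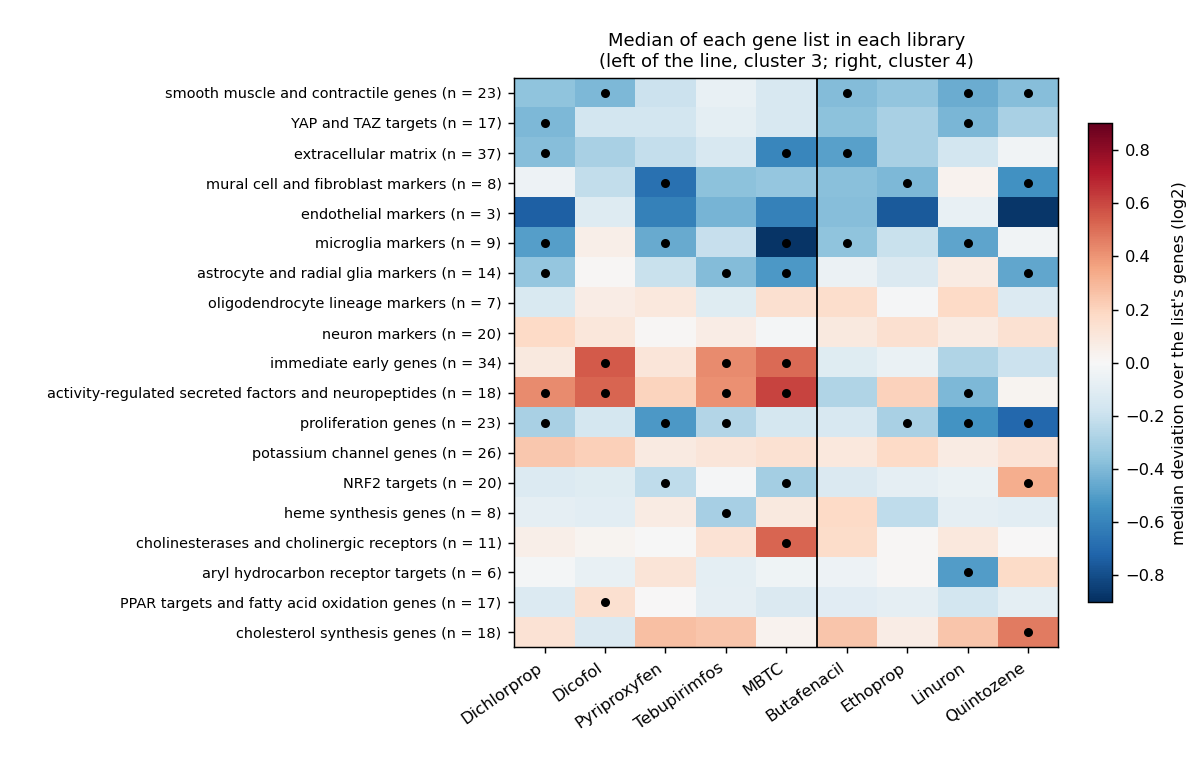
Median deviation (log2, colour scale) over the measured genes of each list (rows, number of genes in parentheses) in the 9 libraries (columns). A dot marks a library with at most 1 of the 49 vehicle libraries beyond it; contractile, proliferation and microglial lists are low in libraries of both clusters, whereas immediate early genes carry dots at the high end in dicofol, tebupirimfos and methylene bis(thiocyanate).

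Some of the immediate early genes separated the 2 clusters. Fos (chr12:86814840-86818223, plus strand), a subunit of the AP-1 transcription factor, was 0.61 under dichlorprop, 2.28 under dicofol, 0.80 under pyriproxyfen, 1.15 under tebupirimfos and 2.43 under methylene bis(thiocyanate). In cluster 4 it was -1.02 under butafenacil, 0.07 under ethoprop, -0.46 under linuron and -0.34 under quintozene, and the vehicle range was -1.71 to 2.52 with a median of 0.05. The clusters did not overlap, and dicofol, tebupirimfos and methylene bis(thiocyanate) exceeded all but 1 vehicle library. The difference from vehicle was 1.41 ± 0.39 (SE) in cluster 3 and -0.48 ± 0.24 (SE) in cluster 4. Among 344 chemical libraries, Fos ranked 4th from the highest under methylene bis(thiocyanate) and 5th under dicofol, while dichlorprop ranked 75th.

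Npas4, a transcription factor induced by calcium entry, was 0.52, 1.94, 0.58, 0.71 and 1.53 in cluster 3, in the same order, and -0.14, -0.23, -0.76 and -0.27 in cluster 4. Bdnf, the secreted neurotrophin, was 0.49, 2.03, 0.56, 0.93 and 1.40 in cluster 3 and -0.26, -0.61, -0.44 and -0.20 in cluster 4. Vgf (chr5:137506165-137509221, plus strand), a precursor of secreted peptides, was 0.36, 1.58, 0.31, 0.80 and 1.35 against -0.47, -0.59, -0.65 and -0.29. In each of the 3 genes the clusters lay on opposite sides of the vehicle mean, and the same 3 chemicals as for Fos were highest in cluster 3. Dichlorprop and pyriproxyfen were the 2 lowest of the 5 for Fos, Npas4, Bdnf and Vgf. Vgf was the 1 gene that was apart as higher in cluster 3 and as lower in cluster 4, at 0.83 ± 0.27 (SE) and -0.55 ± 0.11 (SE). Nothing is read from this count of 1, beside 0.541% of all genes as higher in cluster 3 and 0.804% as lower in cluster 4.

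**Figure D3:**
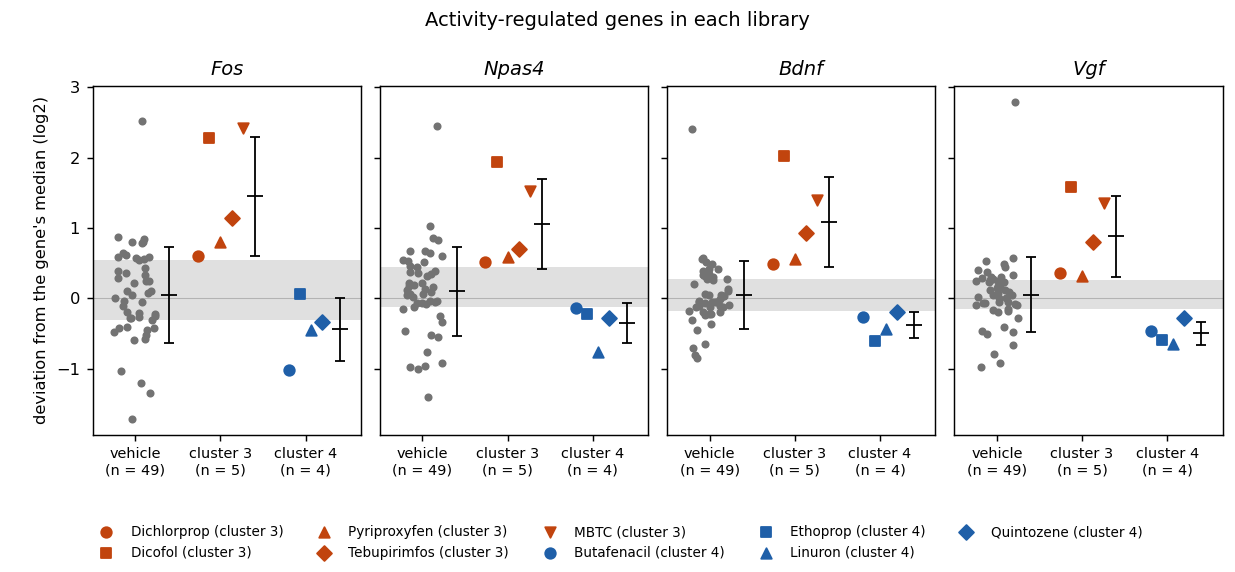
Deviation of Fos, Npas4, Bdnf and Vgf from each gene's median (log2, vertical axis) in 49 vehicle, 5 cluster 3 and 4 cluster 4 libraries. Each point is 1 library, black marks are the mean ± SD and the grey band is the interquartile range of vehicle; all cluster 3 libraries lie above the band in each panel, the cluster 4 libraries lie lower than all of them, and 1 vehicle library is higher than every cluster 3 library.

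All 34 immediate early genes of the list were measured. In cluster 3, 7 were apart as higher (Fos, Fosl2, Npas4, Nr4a2, Nr4a3, Dusp4 and Per1) and 1 as lower (Klf4), beside 0.541% and 0.338% of all genes. In cluster 4 none was apart, beside 1.27% of all genes. Positive differences numbered 28 of 34 in cluster 3 and 10 of 34 in cluster 4, with medians of 0.25 and -0.17. Other members, chosen after their values were seen, did not stand apart in cluster 3. Arc differed by 0.16, Egr1 by 0.17, Egr2 by -0.06 and Jun by -0.33. Arc was -0.39 under dichlorprop and -0.64 under pyriproxyfen.

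Among 18 measured activity-regulated secreted factors and neuropeptides, 4 were apart as higher in cluster 3 (Bdnf, Vgf, Cartpt and Adcyap1) and 1 as lower in cluster 4 (Vgf), beside 0.541% and 0.804% of all genes. Adcyap1, the precursor of the peptide PACAP, was 0.30 to 1.35 in cluster 3 and -0.67 to -0.21 in cluster 4. Crh, the corticotropin-releasing hormone gene, was 2.56 under dicofol and 2.21 under tebupirimfos, both above every vehicle library (-2.18 to 1.78), and -5.06 under butafenacil, under every one. The other 3 cluster 4 chemicals had Crh at 0.14 to 0.69. Crh had a level of 1.38 ± 0.56 CPM (SD, n = 4) in the separate vehicle libraries, a low level.

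Among the genes counted as apart, the largest differences of cluster 3 from vehicle on the high side were those of Fos, Pcsk1 (1.27), Cartpt (1.27), Wif1 (1.18), Acan (1.14), Pacsin3 (1.12), B230216N24Rik (1.11), Churc1 (1.05), Slc40a1 (1.04) and Bdnf (1.04). Pcsk1 cleaves prohormones, Cartpt is a neuropeptide precursor, Acan is the aggrecan of perineuronal nets, Wif1 is a secreted inhibitor of Wnt proteins and Slc40a1 is the iron exporter ferroportin. Crh (1.46) and Fosb (1.28) differed by as much but did not meet the rule in every library. Acan was 0.61, 1.57, 0.95, 0.66 and 1.37 in cluster 3 and -0.40, -1.56, -0.85 and -0.58 in cluster 4, without overlap. Wif1 was 0.81 to 1.52 in cluster 3 and -1.58 to -0.45 in cluster 4, and Pcsk1 was 0.47 to 1.45 and -1.07 to -0.38. In cluster 3 as a whole, 117 genes (0.879% of 13304) were apart, 72 as higher and 45 as lower. The count was 230 without tebupirimfos (112 higher and 118 lower), 222 without pyriproxyfen and 191 without dichlorprop, since fewer libraries then had to meet the rule.

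On the low side of cluster 3, again among the genes apart, the largest differences were those of Krt77 (-1.35), Cml1 (-1.12), Aqp1 (-1.10), Plcb3 (-1.07), Nmral1 (-1.07), Igdcc3 (-1.06), Aebp1 (-0.995), Lyz1 (-0.99), Ctsc (-0.94) and Mt2 (-0.88). Lyz1 encodes a lysozyme and has a close copy, Lyz2, with which reads may have been shared. Ctsc encodes the lysosomal protease cathepsin C, and its difference was -0.58 without tebupirimfos, where it was -2.35. Mt2, a metal-binding metallothionein, was -0.71, -1.11, -1.41, -0.36 and -0.99 in cluster 3, and 4 of the 5 libraries lay under every vehicle library (-0.68 to 0.65). In cluster 4 Mt2 was -1.71 under ethoprop and 0.25 under quintozene, so the cluster 4 libraries were split for it. Of the 20 genes named for cluster 3, 9 were at under 5 CPM and 1 at under 1 CPM in the separate vehicle libraries.

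In cluster 4, 169 genes (1.27%) were apart, 62 as higher and 107 as lower. The count was 294 to 321 with any 1 of the 4 libraries left out, since fewer libraries then had to meet the rule. The 10 largest of these genes on the low side were Sult1a1 (-2.22), Srp54a (-1.58), Tnfsf12 (-1.39), Myl9 (-1.30), Glb1l2 (-1.26), Cdca7l (-1.26), Rhod (-1.24), Caskin2 (-1.19), Tagln (-1.19) and Dcxr (-1.19). Sult1a1, a phenol sulfotransferase, was -3.67 under butafenacil, -0.98 under ethoprop, -2.64 under linuron and -1.80 under quintozene, and -2.81 under dicofol of cluster 3. Srp54a encodes a subunit of the signal recognition particle and has near-identical copies in the mouse genome, so its counts are uncertain, and its vehicle range was -4.01 to 2.74. The difference of Tnfsf12 was -0.83 without butafenacil and that of Dcxr -0.75 without quintozene.

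On the high side of cluster 4, among the genes apart, stood Mapk12 (1.39), Kcnh4 (1.16), Morn2 (1.09), Itgb3bp (1.07), Abca17 (1.04), C920006O11Rik (1.03), Stk30 (1.00), Crip3 (0.99), Rab26 (0.93) and Prox2 (0.92). Mapk12 is a p38 kinase and Kcnh4 a voltage-gated potassium channel. Kcnh4 was 1.31, 1.39, 0.91 and 0.92 in cluster 4 and between -0.83 and 0.34 in cluster 3, against -1.87 to 1.18 in vehicle. It was the 1 gene of 26 potassium channel genes that stood apart, beside 0.466% of all genes as higher in cluster 4. The difference of C920006O11Rik was 0.63 without butafenacil. Of the 20 genes named for cluster 4, 16 were at under 5 CPM in the separate vehicle libraries.

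All 12 genes that were apart over the 9 libraries together (0.0902% of 13304) were lower. There were 28 without tebupirimfos (25 lower), 21 without dicofol (18 lower) and 18 without pyriproxyfen (all lower). The 12 were Rfx4 (-0.69), Fmod (-0.69), Fgfrl1 (-0.68), Naaa (-0.66), Cyp1b1 (-0.59), Ptrf (-0.58), Slc7a2 (-0.57), Igfbp2 (-0.57), Nxn (-0.56), Cspg4 (-0.55), Gpc4 (-0.54) and Cyr61 (-0.52). Fmod is the collagen-binding fibromodulin, Gpc4 is a glypican, Cspg4 is the NG2 proteoglycan of pericytes and oligodendrocyte precursors, Ptrf is a coat protein of caveolae, Fgfrl1 is a fibroblast growth factor receptor without a kinase domain, and Igfbp2 binds insulin-like growth factors. Rfx4 is a transcription factor of neural progenitors and glia, and Nxn is the redox protein nucleoredoxin.

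Igfbp2 (chr1:72871077-72899048, plus strand), the highest of the 12 in level at 317 ± 180 CPM (SD, n = 4), was -0.84, -0.44, -0.48, -0.21 and -0.72 in cluster 3 and -0.77, -0.62, -0.54 and -0.49 in cluster 4. All but tebupirimfos lay under all but 1 vehicle library (-0.90 to 0.46). Nxn was between -0.85 and -0.21 in the 9 libraries, against -0.28 to 0.58 in vehicle, and Cspg4 was between -0.62 and -0.31. Cyr61 was -0.66, -0.47, -0.29, -0.18 and -0.60 in cluster 3 and -0.33, -0.94, -0.60 and -0.70 in cluster 4. The clusters overlapped for each of these 4 genes. Cyp1b1, a cytochrome P450, was the 1 of 6 measured aryl hydrocarbon receptor targets that stood apart over the 9 libraries, beside 0.0902% of all genes. Of the 45 genes lower in cluster 3 and the 107 lower in cluster 4, 9 were shared (20% and 8.41%), and both comparisons used the same vehicle libraries. No gene was higher in both, beside 0.541% of all genes as higher in cluster 3 and 0.466% in cluster 4, so nothing is read from it.

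Compared with each other, 255 genes (1.92%) differed by at least 0.5 with no overlap of the 5 and 4 libraries, 144 as higher in cluster 3 (1.08%) and 111 as lower (0.834%). Without quintozene the count was 410 and without pyriproxyfen 385. Among these 255 genes, the 5 largest on the high side were Srp54a (2.46), Wif1 (2.30), Fos (1.89), Acan (1.88) and Fosb (1.80). On the low side they were Car3 (-1.999), Nmral1 (-1.58), Kcnh4 (-1.40), Smoc2 (-1.38) and Lyz1 (-1.33). Car3, a carbonic anhydrase, was -0.55, -2.63, -1.56, -2.85 and -2.51 in cluster 3 and 0.30, -0.11, -0.27 and 0.00 in cluster 4, with a vehicle range of -2.95 to 1.87. Of the 34 immediate early genes, 8 were higher in cluster 3 without overlap and 1 lower, and of the 23 contractile genes 1 was higher.

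Single libraries also carried patterns that their cluster did not share. NRF2 targets, the genes of the electrophile and oxidant response, had a list median of 0.33 under quintozene, over all 49 vehicle libraries (-0.24 to 0.14), and of -0.31 under methylene bis(thiocyanate), under all of them. Srxn1 (sulfiredoxin) was 1.70 under quintozene and -0.35 to 0.27 in the other 8 libraries, with a vehicle maximum of 0.27. Slc7a11, the cystine importer, was 1.07, Hmox1, heme oxygenase, 1.06 and Gsta4, a glutathione transferase, 1.96 under quintozene, each over every vehicle library and every other of the 9. Gclm, the regulatory subunit of glutathione synthesis, was 0.63 under quintozene, also above all vehicle libraries. None of the 20 NRF2 targets was apart for either cluster as a whole, beside 0.879% of all genes in cluster 3 and 1.27% in cluster 4. Cholesterol synthesis genes, unlike these, were high in libraries of both clusters. Their list median was 0.47 under quintozene, over 48 of 49 vehicle libraries. It was 0.27 under pyriproxyfen and 0.25 under tebupirimfos, butafenacil and linuron, each over 46 of them. Under dichlorprop, ethoprop, methylene bis(thiocyanate) and dicofol it was 0.13, 0.07, 0.03 and -0.13. Differences from vehicle were positive for 18 of 18 genes in cluster 4 and 17 in cluster 3. Of 18 measured, 2 (Lss and Nsdhl, enzymes of sterol synthesis) were apart and higher in cluster 4, beside 0.466% of all genes.

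Chemicals with a known target were read for genes next to that target. Butafenacil inhibits protoporphyrinogen oxidase, and Alas1, the first enzyme of heme synthesis, was 0.88 under it, over all vehicle libraries (-0.96 to 0.47). Ppox itself was 0.26. Alas1 was 0.73 under flumioxazin, 1.06 under sulfentrazone and 0.71 under pyraflufen-ethyl, which inhibit the same enzyme, but 0.09 under carfentrazone-ethyl, 0.14 under flumiclorac-pentyl and 0.35 under fluthiacet-methyl. The screen held further inhibitors of this enzyme, such as acifluorfen and lactofen, that were not read here. Alas1 was 0.53 under methylene bis(thiocyanate) and -0.39 to 0.05 in the other 7 of the 9 libraries. Ache, the acetylcholinesterase that organophosphates block, was 0.03 under tebupirimfos and 0.08 under ethoprop, both within the vehicle interquartile range. None of the 8 heme synthesis genes, 11 cholinergic genes or 17 fatty acid oxidation genes measured was apart in either cluster. Of all genes, 0.879% were apart in cluster 3 and 1.27% in cluster 4, so little can be read from this.

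Related chemicals outside both clusters were set beside the members, 1 library each, with no test. Linuron and diuron, both at 10 µM, differ by a methoxy in place of a methyl group on the urea nitrogen. Acta2 was -1.45 under linuron and 0.45 under diuron, Tagln -1.55 and 0.59, and Vgf -0.65 and 0.22. Fluometuron, another phenylurea at 10 µM, gave 0.41 for Acta2 and 0.70 for Tagln. Each linuron value was thus opposite in sign to that of both relatives for Acta2 and Tagln. For quintozene and dichloran, 2 chlorinated nitrobenzenes at 10 µM of which the second carries an amino group, Acta2 was -1.01 and 1.10 and Fos -0.34 and 1.16, while Hmox1 was high under both (1.06 and 0.90).

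For dicofol, methoxychlor and its demethylated form, which carries hydroxyphenyl rings, were at the same 10 µM. Acta2 was -1.34, -1.31 and -0.55, all under the vehicle interquartile range, whereas Fos was 2.28, 0.21 and 0.31 and Bdnf 2.03, -0.13 and 0.25. Dicofol was the 1 of the 3 with high Fos. The 3 differ in more than 1 group, so which part of the structure goes with it cannot be told. Among phenoxy acids at 10 µM, 2,4-D lacks the methyl group beside the carboxyl that dichlorprop has, and Acta2 was -0.09 under 2,4-D and -0.88 under dichlorprop, while Fos was 0.59 and 0.61. Fenamiphos was the 1 organophosphate of the 4 set beside ethoprop with Acta2 near it (-1.11 against -1.33). Fosthiazate, profenofos and tribufos were at 0.25 to 0.49, and profenofos had Fos at 1.74. TCMTB was given at 10 µM against 1 µM for methylene bis(thiocyanate), so their Acta2 values of -1.30 and -0.80 are side by side only, as are those of fenoxycarb at 1 µM (0.30) and pyriproxyfen at 10 µM (-0.75). Over the 26 related chemicals, Acta2 was under the vehicle interquartile range in 7 and over it in 8.

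**Figure D4:**
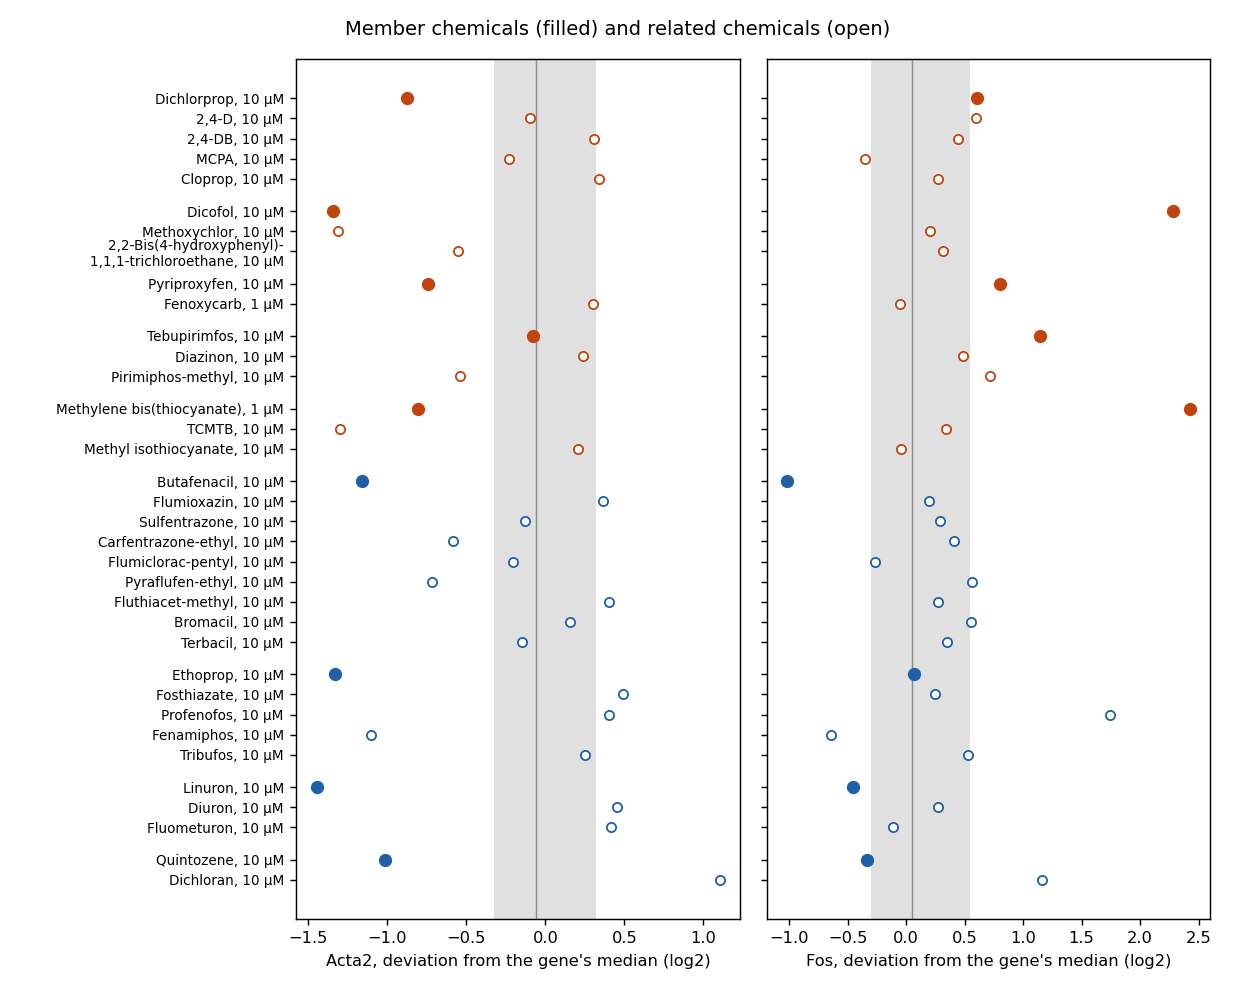
Deviation of Acta2 (left) and Fos (right) from each gene's median (log2, horizontal axis) under the 9 chemicals (filled; cluster 3 orange-red, cluster 4 blue) and 26 related chemicals (open, same colour as the chemical they stand with). The grey band is the interquartile range of vehicle and the line its median; linuron and quintozene lie to the left of the band for Acta2 while diuron, fluometuron and dichloran lie to the right.

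Whole profiles were compared last. The SD over genes of a library's values minus the vehicle median was 0.395 to 0.449 for the 9 libraries. These SDs lay within the 0.265 to 0.527 of the vehicle libraries, each taken against the median of the other vehicle libraries. They were around the median of 0.405 of the other chemical libraries. Between 3.03% (tebupirimfos) and 7.10% (dicofol) of genes lay outside the range of the vehicle libraries. Spearman correlations over the 5121 variable genes were 0.0901 to 0.176 for the 10 pairs within cluster 3, 0.118 to 0.155 for the 6 pairs within cluster 4 and -0.00225 to 0.112 for the 20 pairs between them. The study set a minimum pairwise Spearman correlation for cluster members that is higher than every within-cluster value here. Why the values here were lower was not tested. The genes share normalisation and the libraries share gene medians, so these correlations are descriptions. The values nearest to the edge of the clusters overlapped with those inside. Fenpropathrin, outside both clusters, was at 0.192 with dicofol, above every pair within cluster 3, and imazapyr at 0.132 with butafenacil.

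**Figure D5:**
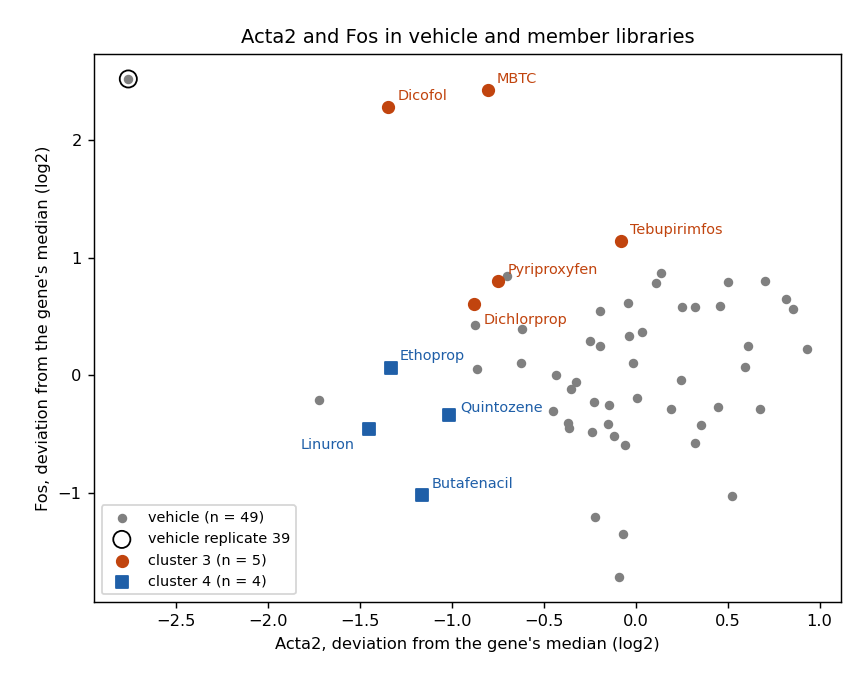
Acta2 (horizontal axis) against Fos (vertical axis), both as deviations from the gene's median (log2), in 49 vehicle libraries (grey), 5 cluster 3 libraries (orange-red circles) and 4 cluster 4 libraries (blue squares), 1 point per library. Cluster 4 lies at low Acta2 with Fos of 0.07 or less, cluster 3 at higher Fos, and the circled vehicle replicate 39 lies at the extreme of both axes.

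How these genes varied together without any chemical was tested in the 49 vehicle libraries, which played no part in choosing the 9. Of 12 gene pairs, 7 were correlated (two-sided permutation tests with 100000 resamples, Benjamini-Hochberg adjusted over the 12). Acta2 was correlated with Tagln (r = 0.84, rho = 0.88, permutation p = 1e-05, adjusted p = 2.4e-05), with Cnn2 (r = 0.68, rho = 0.67, permutation p = 1e-05, adjusted p = 2.4e-05) and with Myl9 (r = 0.59, rho = 0.68, permutation p = 0.00012, adjusted p = 0.000206). A p of 1e-05 is the smallest these permutations can give. Without the 2 libraries farthest from the Acta2 median, r was 0.82, 0.58 and 0.48. Contractile genes thus varied together between vehicle cultures, and for Acta2 the vehicle range held all 9 libraries.

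Acta2 was also correlated with Mki67 (r = 0.68, rho = 0.47, permutation p = 7e-05, adjusted p = 0.00014), with r of 0.46 without the 2 farthest libraries. For Acta2 with Col1a1 (the collagen of fibroblasts), Cx3cr1, Gfap, Rbfox3 and Fos, r was 0.03, 0.05, 0.13, 0.25 and -0.22, with adjusted permutation p of 0.819, 0.797, 0.43, 0.121 and 0.161. The Spearman p adjusted over the pairs was 0.136, 0.85, 0.882, 0.288 and 0.471. These 5 pairs missed the threshold, which does not show that the genes are unrelated. Without the 2 farthest libraries the 5 values of r were 0.22, -0.11, -0.09, 0.08 and 0.14.

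Fos was correlated with Npas4 (r = 0.70, rho = 0.51, permutation p = 1e-05, adjusted p = 2.4e-05), with Bdnf (r = 0.85, rho = 0.77, permutation p = 1e-05, adjusted p = 2.4e-05) and with Vgf (r = 0.77, rho = 0.57, permutation p = 1e-05, adjusted p = 2.4e-05). Without the 2 libraries farthest from the Fos median, r was 0.56, 0.79 and 0.61. Without replicate 39 it was 0.57, 0.80 and 0.67. Batches of culture are not named in the labels, so no value within batches could be given.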

How the data were processed

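RNA of the cultures was sequenced from TruSeq libraries. After a TagDust filter the authors used TopHat with the mm9 genome, removed ribosomal RNA reads and computed RPKM over RefSeq genes, keeping genes over 500 bp with a value above 0 in over 90% of samples. They deposited log10 RPKM after quantile normalisation, removal of batch effects with a mixed model and centring on each gene's median, and these were multiplied here to the log2 scale. The authors also deposited raw counts per gene, of which the 4 vehicle columns gave CPM. The other 4 columns of that table and the 6 columns of another count table were not used. The processed values hide depth and culture batches, so differences are relative to the gene medians.

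The members, gene lists and rules were chosen with earlier results of these data known. Named genes were the markers, up to 4 list members by size of difference and genes compared by library, the 10 largest differences in each direction for each comparison with vehicle, the 5 largest between the clusters, and the genes of the tested pairs. Means were compared with SEs from both groups' SDs. The only tests were permutation tests of 12 gene pairs over the vehicle libraries. Nothing shows that vehicle libraries were separate preparations, so their spread may be partly technical. Alternatives were other chemicals as reference, other minimum differences, the vehicle median in place of the interquartile range, medians, variable genes only and each library left out. The script was tested on simulated data. Python 3.11.15, numpy 2.4.6, pandas 2.3.3, scipy 1.17.1 and matplotlib 3.10.9 were used. Promoter windows are from RefSeq (GRCm38.p6) and gene positions are on mm9.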

Additional observations from a re-analysis of the deposited data

Results flagged for a closer look

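Among 62 named genes, 124 groups of 4 or 5 libraries were searched for a library far from the others of its cluster, and 8 were found (6.45%, where chance gives about 1 in 20). In cluster 3, B230216N24Rik was 1.57 under dicofol, above the 0.39 to 0.72 of the other libraries. Cspg4, the NG2 proteoglycan, was -0.31 under dichlorprop, above -0.62 to -0.56. Itgb3bp was 1.52 under dicofol, against -0.15 to 0.16. Plcb3, a phospholipase, was -1.83 under dichlorprop, against -1.03 to -0.75. Sult1a1, a sulfotransferase, was -2.81 under dicofol, against -0.42 to 0.20. In cluster 4, C920006O11Rik was 2.03 under butafenacil, against 0.32 to 0.52. Stk30 was 1.28 under quintozene, against 0.64 to 0.72. Tnfsf12, a cytokine gene, was -3.27 under butafenacil, against -1.19 to -0.89.

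For 10 of the 62 named genes every cluster 3 library lay on one side of the vehicle mean and every cluster 4 library on the other. Genes outside these 62 were not searched for this, so no share over all genes can be set beside it. Many of the 62 were named for large differences between the clusters or from vehicle, which favours such a pattern. Higher in cluster 3 were Wif1 by 2.30, Acan by 1.88, Pcsk1 by 1.72, Slc40a1 by 1.57, Bdnf by 1.46, Npas4 by 1.41 and Vgf by 1.38. For Car3, Nmral1 and Smoc2 cluster 3 minus cluster 4 was -1.999, -1.58 and -1.38. These differences were not tested, since the clusters were drawn on the same values.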

How the results depend on the processing

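No paired analysis was possible because the labels do not say which vehicle library belongs to which chemical. The replicate numbers were given in accession order and pair nothing. The counts of genes apart from vehicle depend on the rule. With a minimum difference of 0.3 they were 20 for all 9 libraries, 245 for cluster 3 and 350 for cluster 4, and 483 between the clusters. With a minimum of 1 they were 0, 16, 25 and 57, and the share higher in cluster 3 than in cluster 4 was 70.2% against 56.5%. With the vehicle median in place of the interquartile range they were 69, 338 and 421. Over variable genes only, 7 genes were apart for all 9. Leaving out 1 of the chemical libraries gave 11 to 28, 163 to 230, 294 to 321 and 289 to 410 genes, where fewer libraries have to meet the rule. The highest of these counts were without tebupirimfos, tebupirimfos, quintozene and quintozene, and dropping each other library of cluster 4 gave 294 to 315. The share higher among cluster 3 calls was 61.5%, 49.7% without dicofol, 48.7% without tebupirimfos and 51.8% with the vehicle median. Leaving out vehicle replicate 39, which gave 12, 133 and 166 genes apart from vehicle, was chosen after seeing the data. Against the other chemicals as reference, 11, 108 and 170 genes were apart, of which 6, 74 and 120 were among those apart from vehicle. For 179 named genes, 4819 of 4833 differences moved by less than 1 SD, 14 moved by more, and no called one turned. Correlations of Acta2 that missed the threshold changed sign, with Cx3cr1 to -0.109 without the 2 farthest libraries and -0.121 without replicate 39, with Gfap to -0.022 as rho, -0.0935 and -0.0247, and with Fos to 0.125 as rho, 0.141 and 0.148. The cause was not tested. Pseudocounts and filters on low values do not apply to centred deviations. The depth of the screen libraries is unknown, so no counting error can be given.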
